A study of Mus musculus with 90 samples.

Results

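The genes described here are the chaperones of the endoplasmic reticulum (ER) and the genes of the unfolded protein response (UPR) in mouse liver. They are 35 genes of the 24312 gene symbols in the expression table, taken from a list of names and not by a rule on their values in any comparison. The list was drawn up with earlier results of these data known, so the shares of all genes set beside them are descriptions. Each symbol was represented by 1 RefSeq transcript, the one with the highest mean over all libraries. They comprise 10 chaperones and their cofactors, 7 enzymes and lectins of oxidative folding, 4 genes of sensors and their transcription factor, 8 genes of ER-associated degradation (ERAD), and 6 genes of translocation and of COPII vesicles.

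Hepatocytes secrete most plasma proteins, and these proteins enter the ER through the Sec61 channel as they are made. Chaperones such as BiP, encoded by Hspa5, bind them while they fold, protein disulfide isomerases form their disulfide bonds, the lectins calnexin and calreticulin hold their glycans, and ERAD returns misfolded chains to the cytosol for degradation. The membrane proteins IRE1α (Ern1), PERK (Eif2ak3), and ATF6 sense unfolded protein. IRE1α splices the mRNA of Xbp1, and XBP1 and the released part of ATF6 are transcription factors that raise chaperone and ERAD genes, many of which carry an ER stress response element (ERSE) in their promoters.

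RNA was sequenced from 54 livers of single mice in 16 groups of 5 experiments, all on night-restricted feeding (NRF), in which mice were trained for 4 days to receive food from zeitgeber time (ZT) 12, and 14 comparisons were made. In the NRF experiment, uninjected males of 10 weeks (C57BL/6 in the labels and C57BL/6N in the study's methods) were taken at ZT10 unfed, ZT14-unfed, or ZT14-fed (n = 2 each), and their RNA was depleted of ribosomal RNA. In the second experiment, mice of 10 weeks and of the same strain were injected 30 min before the meal and taken at ZT14, unfed after vehicle (PBS) or fed after PBS, dexamethasone (dex, a glucocorticoid agonist, 1 mg/kg), S961 (an antagonist of the insulin receptor), or dex with S961 (n = 4 each). In the L-GRKO experiment, adult mice with both alleles of the glucocorticoid receptor (GR) gene floxed (Nr3c1 fl/fl, on a C57BL/6N background by the methods) received an AAV8 virus with Cre or, as controls, GFP, driven by the Tbg promoter, which is active in hepatocytes, and were taken unfed at ZT14 (n = 4 each). The age of the L-GRKO mice is not given in the sources used here. In the L-IRSdKO experiment, Irs1 fl/fl Irs2 fl/fl mice of 10 weeks (C57BL/6J background by the methods) with or without Alb-Cre, which acts in hepatocytes and cholangiocytes, were compared at ZT14-fed (n = 4 each), and both groups had received dex, 1 mg/kg, before the meal. In the obesity experiment, C57BL/6 mice were kept from 5 weeks of age for 10 weeks on chow (lean) or on a high-fat diet (diet-induced obesity, DIO), then trained to NRF and taken unfed or fed at ZT14 (n = 3 each). A mouse labelled fed had eaten for 2 h.

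The promoters of these genes were searched for the elements through which the UPR is known to act. RefSeq promoters of the GRCm38.p6 build, from 250 bases before to 50 bases after the start of transcription, were held for 29 of the 35 genes, the others being Atf6, Derl1, Hspa13, Hyou1, Manf, and Sec61a1. Searched on both strands, the ERSE (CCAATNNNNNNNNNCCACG) was found in 9 of the 29 promoters (31.0%), and in 37 of the promoters of 27025 genes (0.137%). The ERSE-II (ATTGG and CCACG with 1 base between them) was found in 2 (6.90%), against 0.044% of all genes, and the UPR element TGACGTGG in 1 (3.45%), against 0.714%. The search elements do not overlap in these promoters, 12 members (41.4%) carried at least 1 of them, and a match says only that these letters are present. The 250 bases before the start are shown for 5 genes on which the results below turn, with each match in capitals. These are Hspa5 (chr2:34771840-34772089, plus strand), Hsp90b1 (chr10:86705445-86705694, minus strand), Creld2 (chr15:88819396-88819645, plus strand), Syvn1 (chr19:6046326-6046575, plus strand), and Herpud1 (chr8:94386179-94386428, plus strand).
Hspa5: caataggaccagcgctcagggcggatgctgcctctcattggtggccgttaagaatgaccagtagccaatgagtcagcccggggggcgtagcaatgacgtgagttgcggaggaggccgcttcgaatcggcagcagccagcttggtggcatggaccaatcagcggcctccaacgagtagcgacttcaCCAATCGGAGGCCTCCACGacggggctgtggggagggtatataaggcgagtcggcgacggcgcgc
Hsp90b1: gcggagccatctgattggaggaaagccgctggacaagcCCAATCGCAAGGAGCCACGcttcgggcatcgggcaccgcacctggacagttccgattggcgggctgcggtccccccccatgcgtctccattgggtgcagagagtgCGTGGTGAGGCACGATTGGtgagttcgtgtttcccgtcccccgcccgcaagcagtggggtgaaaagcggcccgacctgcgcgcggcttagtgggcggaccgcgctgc
Creld2: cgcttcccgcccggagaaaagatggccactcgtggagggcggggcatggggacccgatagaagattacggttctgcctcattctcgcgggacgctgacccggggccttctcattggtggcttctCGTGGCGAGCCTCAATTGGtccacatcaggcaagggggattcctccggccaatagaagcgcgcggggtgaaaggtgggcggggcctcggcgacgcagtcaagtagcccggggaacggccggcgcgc
Syvn1: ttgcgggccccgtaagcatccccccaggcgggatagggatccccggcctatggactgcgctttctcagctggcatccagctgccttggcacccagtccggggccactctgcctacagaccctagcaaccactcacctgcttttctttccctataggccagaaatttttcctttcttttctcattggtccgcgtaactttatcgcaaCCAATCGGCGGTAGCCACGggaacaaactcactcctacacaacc
Herpud1: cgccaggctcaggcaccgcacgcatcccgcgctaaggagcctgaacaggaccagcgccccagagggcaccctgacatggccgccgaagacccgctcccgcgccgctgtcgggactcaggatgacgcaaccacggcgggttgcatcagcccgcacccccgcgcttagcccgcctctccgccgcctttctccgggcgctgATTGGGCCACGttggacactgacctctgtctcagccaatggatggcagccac
The capitals mark 1 ERSE in Hspa5, Creld2, and Syvn1, 2 in Hsp90b1, and an ERSE-II in Herpud1, and those of Creld2 and the second of Hsp90b1 read in the opposite direction.

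In the other promoters with a match, the element is shown with 10 bases on each side. They are Calr (chr8:84847065-84847103, minus strand), Derl3 (chr10:75893232-75893270, plus), Canx (chr11:50325790-50325828, minus), Pdia6 (chr12:17266481-17266519, plus), Dnajc3 (chr14:118937817-118937855, plus), Dnajb11 (chr16:22857842-22857872, plus), and Sec24d (chr3:123267460-123267487, plus).
Calr: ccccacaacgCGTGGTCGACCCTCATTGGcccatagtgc
Derl3: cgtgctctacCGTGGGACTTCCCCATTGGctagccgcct
Canx: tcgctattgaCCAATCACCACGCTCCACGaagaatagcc
Pdia6: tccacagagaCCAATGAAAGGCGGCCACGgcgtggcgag
Dnajc3: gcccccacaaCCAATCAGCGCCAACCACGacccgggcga
Dnajb11: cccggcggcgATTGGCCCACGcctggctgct
Sec24d: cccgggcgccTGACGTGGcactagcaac
The first 5 carry an ERSE, Dnajb11 an ERSE-II, and Sec24d the UPR element. The 10 ERSE matches lay between 212 and 26 bases before the start, and the ERSE-II of Dnajb11 lay after it.

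**Figure D1:**
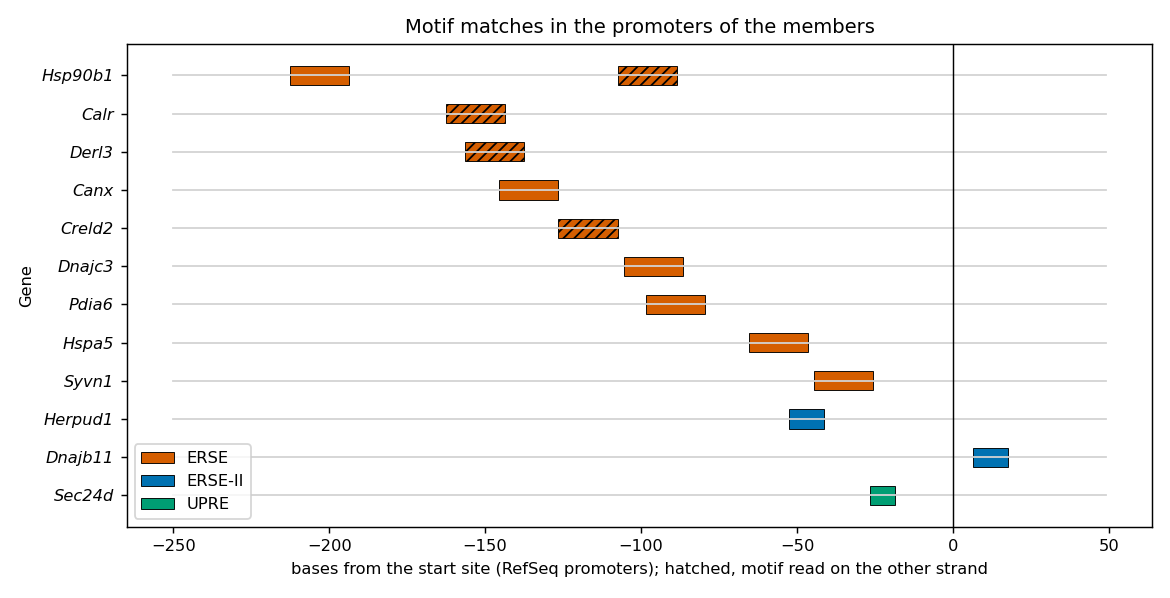
Position of each ERSE, ERSE-II, and UPR element in the promoters of the 12 genes that carry one, in bases from the start of transcription (0), with hatched boxes for matches read on the other strand. The ERSE of Syvn1 ends 26 bases before the start and the first ERSE of Hsp90b1 begins 212 bases before it.

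The deposited values are RPKM, in which reads are divided by the length of the transcript and by depth, every log2 difference below is on the scale of log2(RPKM + 0.5), and adjusted p-values are from limma over all genes tested in an experiment. Depth was estimated from the step that 1 read makes in the values. In units of 1e6 reads a library, it was 26.0 to 38.0 in the NRF experiment, 6.46 to 13.5 in the injected mice, 15.2 to 27.2 in L-GRKO, 3.64 to 4.48 in L-IRSdKO, and 16.8 to 61.9 in the obesity experiment. The 5 hepatocyte markers summed to between 2043 and 2540 RPKM in the L-IRSdKO libraries and to between 27870 and 72420 RPKM elsewhere, so levels were not compared between experiments. The highest value of a library was 673.9 to 914.2 RPKM in L-IRSdKO and 18853.0 to 60596.8 RPKM elsewhere. Whether this alters the fold changes of abundant genes in L-IRSdKO was not tested. The deletions were checked first. Nr3c1 stood at 3.93, 4.23, 4.14, and 5.35 RPKM in the mice given Cre and at 12.8, 14.5, 13.2, and 16.2 RPKM in the mice given GFP (log2 difference -1.58, adjusted p = 6.83e-05). Irs1 was at 0.149 to 0.321 RPKM in L-IRSdKO and at 2.21 to 4.73 RPKM in the controls (adjusted p = 0.000916), whereas Irs2 overlapped between them (log2 difference -0.79, adjusted p = 0.308).

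Several libraries stood apart. In the injected experiment, mouse 4 of each group belongs by its library number to another series of libraries than mice 1 to 3, and it had the highest level of many of these genes in the PBS groups. In the L-GRKO experiment, GFP mice 1 and 2 were low and GFP mice 3 and 4 high in most of these genes. In L-IRSdKO, mouse 1 held transcripts of pancreatic acinar cells (Clps 5.0 RPKM, Cel 1.32 RPKM) with an acinar sum of 36.9 RPKM, against 8.86 to 28.7 RPKM in the other libraries of that experiment, and counts without it are given below. That sum includes Cela1, which stood at 19.93 to 26.16 RPKM in the controls, where Cpa1, Cel, and Clps were at 0. In L-IRSdKO mice 1 to 4 Cela1 was at 12.93, 7.112, 8.035, and 5.066 RPKM. Of 11 acinar markers, 9 were at 0 in every control of that experiment and 2, Prss1 and Amy2a5, in every L-IRSdKO library, and Clps was at 0 in L-IRSdKO mice 2 to 4. However, L-IRSdKO mouse 2 had Cpa1 at 0.301 RPKM and Cel at 0.114 RPKM, and mouse 4 had Cpa1 at 0.142 RPKM. Both genes were at 0 in mouse 3. Acinar transcripts also appeared in other experiments, at lower levels than in L-IRSdKO mouse 1. Cpa1, Clps, and Cel were at 0.831, 0.798, and 0.337 RPKM in mouse 1 given dex and S961. In S961 mouse 1 they were at 0.318, 0.153, and 0.081 RPKM, and in GFP mouse 3 at 0.282, 0.095, and 0.075 RPKM. The other mice of these groups were at 0. In fed lean mouse 1, Cpa1 was at 0.302 and Cel at 0.102 RPKM. Their part was not tested. Some reads cannot be placed with certainty. Of the stretches of 50 bases in the Sec61b transcript, 51.5% also occur elsewhere, as do 17.6% for Derl1, 15.4% for Dnajb9, and 6.51% for Manf, and 10.3% of the exon bases of Hsp90b1 overlap a gene on the other strand, for which the strand counted is not given in the sources used here.

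In unfed livers after PBS, these genes covered a range of levels from P4hb (protein disulfide isomerase) at a mean of 397.5 RPKM to Derl3 (an ERAD factor) at 0.253 RPKM. Next after P4hb came Herpud1 (an ERAD adaptor of the ER membrane) at 380.5 RPKM, Hsp90b1 (the ER form of HSP90) at 245.0 RPKM, Hspa5 at 199.5 RPKM, Calr at 151.7 RPKM, and Pdia3 at 103.4 RPKM. P4hb, with 381.0 to 405.5 RPKM, and Herpud1, with 356.7 to 426.4 RPKM, overlapped. The sensors were far lower, with Ern1 at 7.59 RPKM and Eif2ak3 at 2.98 RPKM. The BiP cofactor Sdf2l1 stood at 4.69 RPKM. All 35 genes passed the filter of a mean of 0.5 RPKM in each of the 5 experiments.

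**Figure D2:**
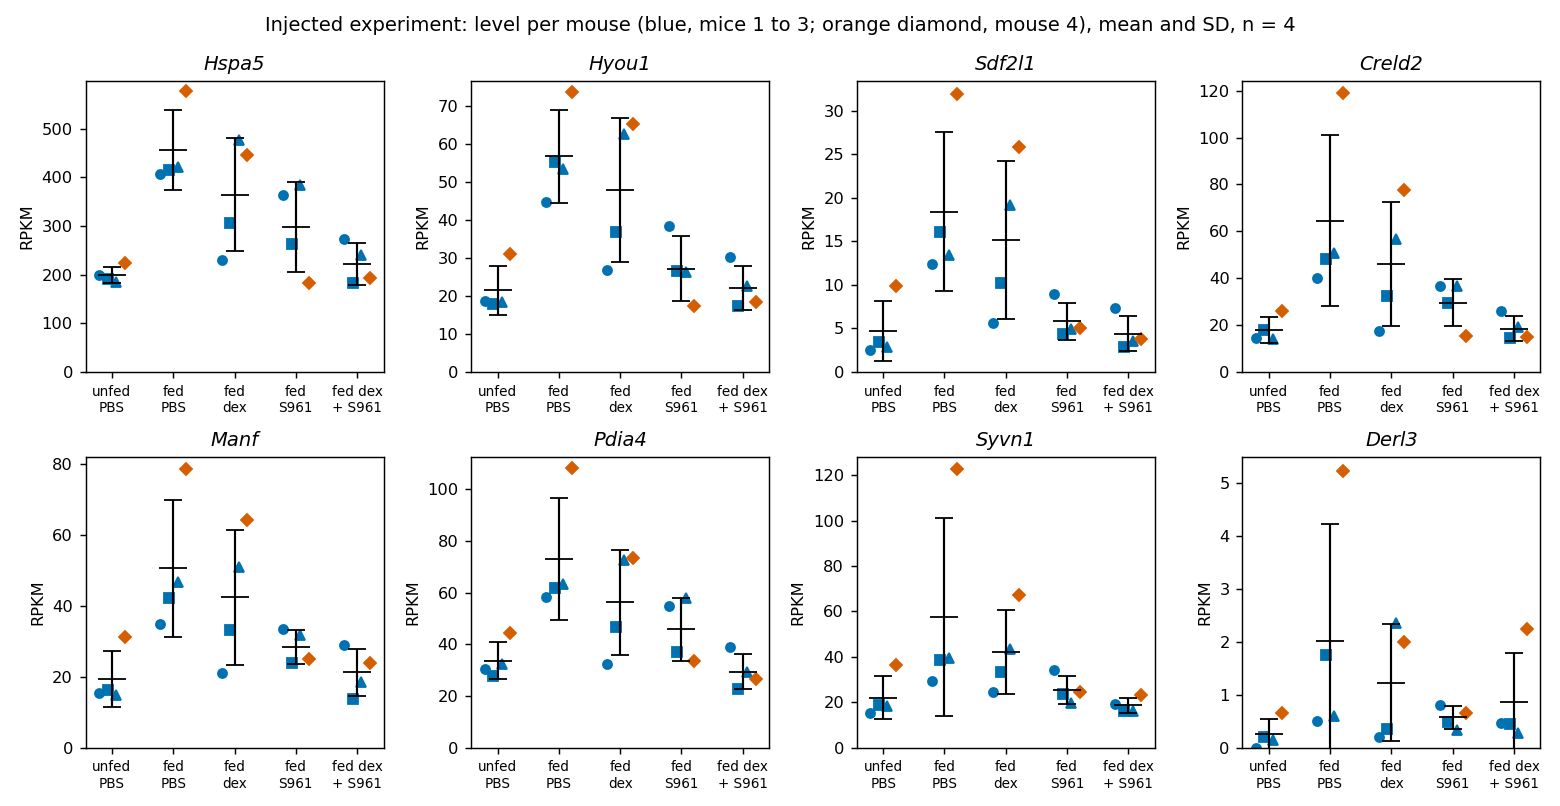
RPKM of 8 genes in each injected mouse, with the mean and SD (n = 4) of each group, mice 1 to 3 as blue points and mouse 4, of the other library series, as an orange diamond. The 4 fed PBS mice lie above the 4 unfed PBS mice for Hspa5, Hyou1, Sdf2l1, Creld2, Manf, and Pdia4, and the mice given dex with S961 lie near the unfed mice.

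The first comparison, called time of day here, asked how these genes differ between ZT10 and ZT14 without food. The ZT14-unfed mice had also fasted longer, past the trained mealtime of ZT12, and were in the dark. These differences cannot be told apart from clock time. From ZT10 to ZT14 in unfed mice, none of the 35 passed an adjusted p of 0.01, where 1.16% of the 10907 genes tested did, and 7 had an unadjusted limma p under 0.05, where 26.4% of all genes did. Hspa5 stood at 182.1 and 159.7 RPKM at ZT10 and at 305.4 and 223.9 RPKM at ZT14-unfed (log2 difference 0.62 ± 0.18 SE, adjusted p = 0.0801). The smallest adjusted p was that of Dnajc3, a BiP cofactor, at 0.0449. Xbp1 had lower values at ZT14-unfed, with 47.2 and 40.2 RPKM against 54.7 and 70.8 RPKM at ZT10, and did not pass (log2 difference -0.51, adjusted p = 0.066). The median of the 35 genes was 0.08 (log2) and that of all genes -0.10. In a piece of liver, fewer cells of a type and less RNA per cell cannot be told apart, here or below. The p-values set a difference against the spread of single mice within groups. In the injected mice that spread also holds any difference between the library series.

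After the meal in uninjected mice, most of the genes had higher values, and none passed the threshold of 0.01 with 2 mice a group, where 0.99% of all genes did. Hspa5 stood at 589.7 and 778.2 RPKM at ZT14-fed, 2.59-fold above ZT14-unfed (log2 difference 1.37 ± 0.18 SE, adjusted p = 0.0105). Creld2, which encodes an ER protein, was at 34.4 and 21.1 RPKM in ZT14-unfed and at 92.7 and 159.1 RPKM in ZT14-fed livers (log2 difference 2.15 ± 0.33 SE, adjusted p = 0.0164). For both genes the fed mice lay above the unfed mice, and this held for 26 of the 35, against 45.6% of all genes. Xbp1 stood at 72.8 and 73.6 RPKM at ZT14-fed (1.67-fold above ZT14-unfed, adjusted p = 0.0275). An unadjusted limma p under 0.05 was reached by 21 of the 35, against 27.7% of all genes. At an adjusted p under 0.05, 14 of the 35 were higher and none was lower, against 4.87% of all genes that were higher. Derl3, 1 of the 14, had means of 0.3 RPKM at ZT10, 0.451 RPKM at ZT14-unfed, and 2.74 RPKM at ZT14-fed. It reached the filter of 0.5 RPKM only through the fed group, so its call adds nothing to the count. The median difference was 0.54 (log2) for the 35 genes and 0.12 for all genes.

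In vehicle-injected mice, the same question could be put to 4 mice a group. Most chaperones rose with the meal, and 15 of the 35 genes passed an adjusted p of 0.05, all of them higher after food, where 2.55% of the 11251 genes tested were higher. The 15 were 8 of 10 chaperones, 3 of 7 genes of oxidative folding and lectins, 1 of 4 sensors, 1 of 8 ERAD genes, and 2 of 6 genes of translocation and vesicles. Hspa5 was at 198.8, 190.8, 185.1, and 223.3 RPKM in unfed livers and at 408.0, 416.1, 421.3, and 578.4 RPKM in fed livers, a rise of 2.26-fold (log2 difference 1.18 ± 0.23 SE, adjusted p = 0.0118). Sdf2l1 was at 2.54, 3.41, 2.92, and 9.87 RPKM unfed and at 12.3, 16.1, 13.4, and 31.9 RPKM fed, and rose 3.88-fold (adjusted p = 0.0244). Mouse 4 was the highest of both groups for each of these genes, and no fed mouse overlapped an unfed mouse. Hyou1, a large HSP70-like protein that exchanges nucleotide on BiP, rose 2.63-fold, from 18.6, 18.0, 18.4, and 31.1 RPKM unfed to 44.8, 55.2, 53.4, and 73.7 RPKM fed (adjusted p = 0.0127). Creld2 was at 14.7, 17.8, 13.9, and 26.0 RPKM unfed and at 40.2, 48.4, 50.9, and 118.8 RPKM fed, and rose 3.27-fold (adjusted p = 0.0281). Manf, an ER protein that can be secreted, rose 2.57-fold, from 15.3, 16.2, 14.9, and 31.3 RPKM to 34.9, 42.2, 46.6, and 78.7 RPKM (adjusted p = 0.0283). In these genes too mouse 4 was the highest on both sides, and the fed and unfed mice did not overlap.

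Among the other called genes, the rises were smaller. Hsp90b1 stood between 237.5 and 259.4 RPKM in unfed and between 374.4 and 430.4 RPKM in fed livers, a rise of 1.62-fold (adjusted p = 0.0442). The disulfide isomerases Pdia4 and Pdia3 rose 2.11-fold and 1.58-fold, Calr rose 1.77-fold, and Sec23b, a subunit of the inner COPII coat, 1.72-fold. The BiP cofactors Dnajb11 and Dnajb9 rose 1.71-fold and 1.67-fold, Sel1l, a scaffold of ERAD, 1.50-fold, and Ssr1, a subunit of the translocon-associated complex, 1.45-fold. Of the 15 genes only Calr overlapped between fed and unfed mice. Eif2ak3, which encodes the sensor PERK, went from 2.58 to 3.36 RPKM unfed to 4.34 to 5.34 RPKM fed and rose 1.53-fold (adjusted p = 0.0384). Xbp1 stood at 67.5, 68.6, 61.0, and 50.2 RPKM unfed and at 142.8, 198.9, 155.7, and 67.2 RPKM fed. Fed mouse 4 was the lowest of its group, within the unfed range, and the difference of 1.09 (log2) did not pass (adjusted p = 0.118). Syvn1, the ubiquitin ligase HRD1 of ERAD, overlapped as well, with 29.4, 38.7, 39.7, and 122.6 RPKM fed against 15.1, 18.7, 18.4, and 36.2 RPKM unfed (adjusted p = 0.0796). All fed values exceeded all unfed values for 22 of the 35 genes, against 11% of all genes, and the median difference was 0.59 (log2) against 0.10 for all genes and 0.48 under median-ratio scaling, which brings the median of all genes to 0.

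The meal's count depended on the libraries. With mice 1 to 3 alone, a selection made after the data were seen, 20 of the 35 were called, Xbp1 among them (log2 difference 1.32, adjusted p = 0.00898), Hspa5 kept its call (log2 difference 1.11, adjusted p = 0.0104), and with a term for the library series, or with the replicate number as a block, 23 were. Syvn1 was among those gained with the series term (adjusted p = 0.00897). Counts under other settings, here and below, stand without the share of all genes unless it is given. They do not measure a gain particular to these genes. Median-ratio scaling left 8 and no filter on low values left 9. Without unfed PBS mouse 1, 2, or 3 the count was 3, 2, and 3, and without fed PBS mouse 2, 3, or 4 it was 3, 7, and 7. Beside these genes, 2 of 5 markers of Kupffer cells were higher in the fed livers, with a sum of 62.6 to 98.5 RPKM against 45.1 to 58.7 RPKM unfed, and none of the 5 was at 0. Of the markers of hepatocytes, acinar cells, stellate cells, and cholangiocytes, 0 were called in the comparisons of injected mice. The filter was passed by 5 of 5 hepatocyte, 2 of 11 acinar, 4 of 5 stellate, and 1 of 4 cholangiocyte markers, and the rest could not be called. The part of Kupffer cells in these results was not tested.

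The injected mice were then compared within the fed state, to ask what a glucocorticoid agonist, a block of the insulin receptor, and both together do. The 3 comparisons share the fed PBS mice with each other and with the meal above, so they are not independent of each other. With dex alone, 1 of the 35 genes passed and was lower, where 2.19% of all genes were. It was P4hb, at 313.2, 324.4, 374.6, and 425.3 RPKM after dex and at 430.7, 456.8, 467.0, and 509.4 RPKM after PBS, with no overlap (1.30-fold lower, adjusted p = 0.0286). Hspa5 was at 230.6, 305.4, 476.7, and 446.0 RPKM after dex. These values ran from just above the unfed PBS mice into the range of the fed PBS mice, and the difference was -0.37 (log2, 95% interval -0.85 to 0.12). Xbp1 was at 102.7, 93.5, 130.3, and 47.3 RPKM (log2 difference -0.58, adjusted p = 0.440). The median of the 35 genes was -0.26 (log2) and that of all genes -0.10. The call of P4hb was lost without dex mouse 1 or 2 or fed PBS mouse 2, 3, or 4, and under median-ratio scaling, while the count was 5 with the series term and 2 with the block. Beside these values, 1 Kupffer marker and 2 of 4 endothelial markers were lower after dex, with a Kupffer sum of 40.1 to 64.1 RPKM, and their part was not tested.

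With S961 alone, 2 of the 35 genes passed, both lower, where 0.96% of all genes were lower. They were Eif2ak3, at 3.43, 3.34, 3.06, and 2.10 RPKM, and Sec23b, at 19.4, 18.7, 16.9, and 12.4 RPKM, all below the 4 fed PBS mice (1.55-fold and 1.53-fold lower, adjusted p = 0.0457 and 0.0351). Others were lower in every mouse and did not pass in this fit. Hyou1 was at 38.4, 26.7, 26.4, and 17.5 RPKM after S961 (log2 difference -1.08, adjusted p = 0.0559), and Sdf2l1 was at 8.90, 4.34, 4.89, and 5.07 RPKM (log2 difference -1.53, adjusted p = 0.0874). Hspa5 was at 363.7, 263.5, 383.6, and 182.8 RPKM (log2 difference -0.65, adjusted p = 0.181), again below each fed PBS mouse, whereas Xbp1, at 216.8, 142.9, 101.7, and 56.7 RPKM, overlapped (log2 difference -0.18, adjusted p = 0.903). With the series term 10 of the 35 genes were called lower, among them Hyou1 (adjusted p = 0.0326) and Sdf2l1 (adjusted p = 0.0259), and with the block 7 were, both genes included (adjusted p = 0.0461 and 0.0400). All S961 mice lay below all fed PBS mice for 15 of the 35 genes, against 4.44% of all genes, and 24 had an unadjusted p under 0.05, against 14.3% of all genes. The median was -0.44 (log2) against -0.08 for all genes. The count was 0 with mice 1 to 3 alone, under median-ratio scaling, or without fed PBS mouse 1, 2, or 3 or S961 mouse 3 or 4, and 5 without S961 mouse 1, and 2 of 5 Kupffer markers were lower beside them (sum 42.7 to 64.5 RPKM), a part that was not tested.

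With dex and S961 together, 19 of the 35 genes fell and none rose, where 7.9% of all genes fell. They were 8 of 10 chaperones, 5 of 7 genes of oxidative folding and lectins, 1 of 4 sensors, 3 of 8 ERAD genes, and 2 of 6 genes of translocation and vesicles. Hspa5 was at 274.3, 182.6, 241.3, and 192.8 RPKM, below each of the 4 fed PBS mice (2.05-fold lower, log2 difference -1.04 ± 0.23 SE, adjusted p = 0.00778). Sdf2l1 was at 7.33, 2.84, 3.56, and 3.82 RPKM (3.80-fold lower, adjusted p = 0.00877). Creld2, at 26.0, 14.3, 19.0, and 14.9 RPKM, fell 3.19-fold from 40.2 to 118.8 RPKM. In all 3 genes mouse 1 was the highest of the treated mice and still below the fed PBS range. Hyou1, at 30.2, 17.3, 22.6, and 18.5 RPKM, fell by 1.35 on the log2 scale (adjusted p = 0.00475), and Pdia4, at 38.9, 22.8, 29.4, and 26.8 RPKM against 58.2 to 108.3 RPKM, by 1.27 (adjusted p = 0.00471). Manf fell 2.32-fold, Eif2ak3 1.76-fold, Calr 1.72-fold, and Pdia3 1.66-fold. Hsp90b1, Dnajb11, Dnajb9, Sec23b, Pdia6, Ssr1, and P4hb fell between 1.32-fold and 1.64-fold. None of the 19 genes overlapped between the groups.

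The ERAD genes that fell with dex and S961 were Syvn1, its partner Sel1l, and the mannosidase-like Edem1. Syvn1 was at 19.4, 16.2, 16.2, and 23.2 RPKM (2.58-fold lower, adjusted p = 0.0220), Sel1l fell 1.52-fold, and Edem1 1.40-fold. Herpud1, of the same group, had values of 433.0, 396.8, 415.3, and 447.8 RPKM, of which all 4 lay above fed PBS mice 1 to 3 and below mouse 4 (log2 difference 0.33, adjusted p = 0.341). With mice 1 to 3 alone, 20 genes were lower and Herpud1 was higher (log2 difference 0.50, adjusted p = 0.0192), and Xbp1 was among the lower genes (log2 difference -0.92, adjusted p = 0.0272), as was Hspa5 (log2 difference -0.85, adjusted p = 0.0231). With all 4 mice Xbp1, at 89.9, 64.9, 112.2, and 59.7 RPKM, overlapped with the fed PBS mice (log2 difference -0.73, adjusted p = 0.234). All treated mice lay below all fed PBS mice for 21 of the 35 genes, against 13.5% of all genes, and the median was -0.60 (log2) against -0.14 for all genes. The count was 8 under median-ratio scaling, where the median was -0.45, and 10 without treated mouse 2. Beside these genes 3 of 5 Kupffer markers were lower (sum 50.8 to 59.8 RPKM), and their part was not tested.

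Fed mice given dex and S961 were also compared with unfed PBS mice, which shares both groups with the comparisons above. None of the 35 genes passed, where 2.32% of all genes did, and none had an unadjusted limma p under 0.05, where 11.8% of all genes did. The smallest adjusted p was 0.49, for Ern1. The difference for Hspa5 was 0.14 (log2, 95% interval -0.34 to 0.63), an interval that leaves room for a change of either sign. The median of the 10 chaperones was 0.05 (log2), within a range of -0.01 to 0.15. The mean log2 difference of the 35 genes from the unfed PBS mice was 0.48, 0.69, 0.61, and 0.88 in fed PBS mice 1 to 4, and 0.30, -0.13, 0.05, and -0.06 after dex and S961. It was 0.05, 0.22, 0.65, and 0.66 after dex, and 0.40, 0.16, 0.24, and -0.10 after S961, so that mice of these groups reached from the unfed level up to, after dex, that of fed PBS mice.

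**Figure D3:**
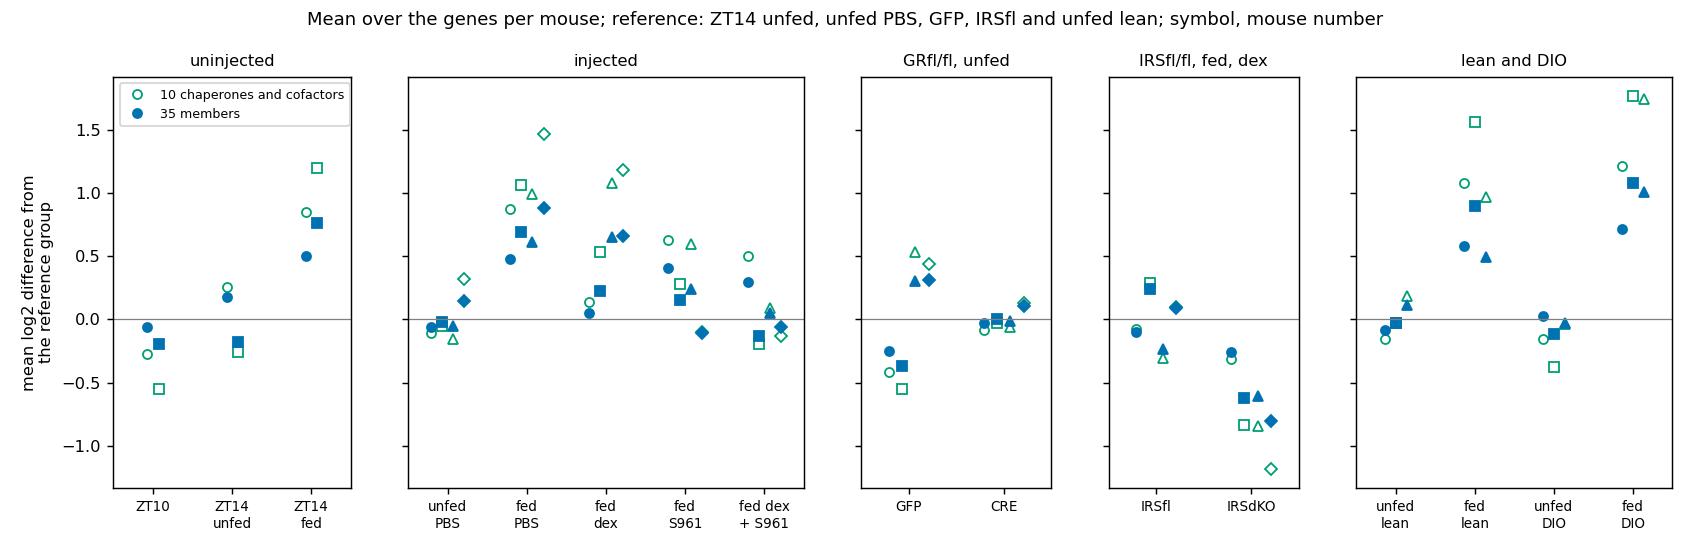
Mean log2 difference per mouse from the reference group of each experiment (ZT14-unfed, unfed PBS, GFP, floxed controls without Cre, unfed lean), over the 35 genes (filled blue) and the 10 chaperones (open green), with a symbol shape for each mouse number. Fed PBS mice lie between 0.48 and 0.88 for the 35 genes, mice given dex and S961 between -0.13 and 0.30, and fed obese mice between 0.71 and 1.08.

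The L-GRKO mice were compared to ask what loss of GR in hepatocytes does to these genes without food. None of the 35 passed an adjusted p of 0.05, where 6.68% of 11649 genes did, and 2 had an unadjusted limma p under 0.05, where 20.1% of all genes did. Hspa5 stood at 337.2, 374.4, 352.6, and 422.4 RPKM with Cre and at 298.2, 241.3, 572.9, and 471.6 RPKM with GFP (log2 difference -0.01, 95% interval -0.53 to 0.50). Sdf2l1 showed the same split of the controls, with 7.80, 9.21, 44.5, and 32.9 RPKM, whereas the Cre mice lay between 15.9 and 23.5 RPKM. The mean over the 35 genes differed from the GFP mean by -0.25, -0.37, 0.30, and 0.32 (log2) in the GFP mice and by -0.03 to 0.11 in the Cre mice, so the controls spread more than the Cre mice. Xbp1 stood at 67.6, 67.5, 63.1, and 66.7 RPKM with Cre and at 52.8, 51.9, 61.9, and 76.4 RPKM with GFP (log2 difference 0.14, adjusted p = 0.580).

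Herpud1 had the smallest adjusted p in L-GRKO. It stood at 192.2, 204.2, 238.7, and 189.1 RPKM with Cre and at 385.9, 238.5, 536.5, and 265.0 RPKM with GFP, where Cre mouse 3 and GFP mouse 2 were level (log2 difference -0.72 ± 0.22 SE, adjusted p = 0.0825). It was called under quantile normalization (log2 difference -0.80, adjusted p = 0.0470). Without GFP mouse 3, Dnajb9, a BiP cofactor, was called higher (log2 difference 0.55, adjusted p = 0.0255), and no other left-out library gave a call. Beside these values, 1 of 5 hepatocyte markers was lower with Cre and no marker of the other cell types was called. The filter was passed by 2 of 11 acinar, 1 of 6 plasma and B cell, and 2 of 4 cholangiocyte markers, and the rest could not be called.

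L-IRSdKO mice were compared with their controls to ask what loss of insulin receptor substrates does in fed mice that had received dex. In L-IRSdKO livers chaperones, disulfide isomerases, and ERAD genes were lower. Of the 35 genes 19 passed, all lower, where 8.31% of 12966 genes were lower. They were 8 of 10 chaperones, 6 of 7 genes of oxidative folding and lectins, and 5 of 8 ERAD genes, and none of the sensors or of the genes of translocation and vesicles. Hspa5 was at 330.2, 385.7, 308.0, and 352.0 RPKM in the controls and at 304.9, 222.2, 226.0, and 187.6 RPKM in L-IRSdKO, with no overlap (1.48-fold lower, log2 difference -0.57 ± 0.14 SE, adjusted p = 0.0243). Hyou1 was at 98.9, 132.7, 76.4, and 116.8 RPKM in the controls and at 73.3, 42.9, 33.5, and 31.4 RPKM in L-IRSdKO (2.42-fold lower, adjusted p = 0.0149). In both genes L-IRSdKO mouse 1, the library with the highest acinar sum of its experiment, was the highest of its group and came near the lowest control. Sdf2l1 fell 4.03-fold, from 82.6, 123.8, 59.9, and 106.7 RPKM to 59.5, 19.7, 21.3, and 9.06 RPKM (adjusted p = 0.0233), and Creld2 2.92-fold, from 171.5, 252.4, 144.0, and 200.1 RPKM to 119.5, 61.0, 58.0, and 39.8 RPKM (adjusted p = 0.0122).

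The ERAD ligase Syvn1 was at 106.1, 175.2, 96.7, and 140.1 RPKM in the controls and at 73.0, 44.0, 40.1, and 37.4 RPKM in L-IRSdKO (2.67-fold lower, adjusted p = 0.00730). Its partner Sel1l fell 2.20-fold, Edem2, a mannosidase-like factor, 1.55-fold, and Derl2, a channel protein of ERAD, 1.47-fold. Derl3 fell 4.76-fold with wide spread, from 3.51, 23.0, 3.06, and 12.9 RPKM to 3.29, 0.712, 1.41, and 0.502 RPKM, and the groups overlapped (adjusted p = 0.0449). Pdia4 fell 2.10-fold, Pdia6 1.70-fold, Calr 1.58-fold, Pdia3 1.49-fold, and Canx 1.30-fold. Of the other chaperones Dnajb11 fell 1.89-fold, Manf 1.66-fold, Hsp90b1 1.37-fold, and Dnajc3 1.23-fold, and P4hb fell 1.22-fold. Xbp1 did not pass, with 110.2, 128.6, 129.6, and 101.1 RPKM in L-IRSdKO against 146.9, 112.3, 155.1, and 130.4 RPKM (log2 difference -0.21, adjusted p = 0.254). All L-IRSdKO mice lay below all controls for 15 of the 35 genes, against 9.58% of all genes, and the median was -0.39 (log2) against 0.03 for all genes.

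Without L-IRSdKO mouse 1 the count was 22. It was 9, 11, and 12 without L-IRSdKO mouse 2, 3, or 4, and 11 without control mouse 2 or 4. The sum of 5 Kupffer markers was 248.3 to 318.0 RPKM in L-IRSdKO and 140.7 to 261.7 RPKM in the controls, 1 Kupffer, 2 endothelial, and 1 stellate marker were higher, and 1 marker each of hepatocytes, acinar cells, and cholangiocytes was lower, while 0 of the 3 markers of plasma and B cells that were tested were called. Their part in the fall of the chaperones was not tested. All mice of this comparison had received dex, so it holds no measure of what dex did.

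The meal was followed in lean and obese mice to ask whether diet changes the response. In lean mice 13 of the 35 genes rose, where 7% of 11434 genes rose, and 1, Herpud1, fell, where 3.23% fell. In obese mice 16 rose and none fell, where 0.962% of all genes rose. The risers were 6 and 10 of the 10 chaperones, 3 and 3 of 7 genes of oxidative folding and lectins, 1 and 2 of 8 ERAD genes, 1 and 0 of 4 sensors, and 2 and 1 of 6 genes of translocation and vesicles, in lean and obese mice. Hspa5 was at 177.7, 189.7, and 224.7 RPKM in unfed lean, 447.2, 622.0, and 420.9 RPKM in fed lean, 158.3, 129.6, and 211.5 RPKM in unfed obese, and 514.2, 801.8, and 840.2 RPKM in fed obese mice. The rise was 2.49-fold in lean (adjusted p = 0.00279) and 4.30-fold in obese mice (adjusted p = 0.00227), with no overlap in either. The difference between them, 0.79 (log2, 95% interval 0.08 to 1.50), did not pass (adjusted p = 0.286).

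Creld2 rose 4.10-fold in lean mice, from 9.76, 17.3, and 19.4 RPKM to 53.7, 89.2, and 50.7 RPKM, and 8.09-fold in obese mice, from 9.03, 9.53, and 16.9 RPKM to 61.5, 113.0, and 124.9 RPKM (adjusted p = 0.00271 and 0.00227). Its difference of 0.98 (log2) had a 95% interval of -0.11 to 2.07, which includes 0. Sdf2l1 rose 5.12-fold in lean mice, from 4.87, 4.14, and 4.97 RPKM to 21.6, 38.6, and 20.7 RPKM, and 5.66-fold in obese mice, from 7.14, 6.61, and 4.71 RPKM to 22.6, 49.1, and 44.2 RPKM, and its difference had an interval of -0.78 to 1.07. Manf was at 15.5, 16.6, and 22.8 RPKM unfed and 61.1, 81.7, and 53.0 RPKM fed in lean mice, and at 16, 9.40, and 19.1 RPKM unfed and 54.7, 88.4, and 97.4 RPKM fed in obese mice (3.49-fold and 5.32-fold). For these genes no fed mouse overlapped an unfed mouse of its diet.

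Hyou1 rose 2.91-fold in lean mice, from 15.7, 22.2, and 26.6 RPKM to 58.2, 78.7, and 51.9 RPKM, and 4.92-fold in obese mice, from 17.8, 12.9, and 21.5 RPKM to 68.9, 96.7, and 94.6 RPKM (adjusted p = 0.00159 and 0.00227). Syvn1 rose 2.65-fold, from 12.5, 16.5, and 23.0 RPKM to 37.2, 64.2, and 39.0 RPKM, and 4.80-fold, from 15.6, 16.1, and 21.0 RPKM to 60.2, 100.2, and 104.0 RPKM (adjusted p = 0.00522 and 0.00281). In the obese mice fed mouse 1 was the lowest fed mouse of both genes. Pdia4 rose 2.41-fold and 2.77-fold. Dnajb9, Dnajc3, Hspa13, Hsp90b1, and Sel1l passed in obese mice, by 2.74-fold, 1.61-fold, 1.87-fold, 2.03-fold, and 1.83-fold, and not in lean mice, and Xbp1 and Ssr1 passed in lean mice and not in obese mice. At an adjusted limma p under 0.05, Hspa13, Hsp90b1, and Sel1l passed in lean mice as well (0.0207, 0.0241, and 0.0211), and Ssr1 in obese mice (0.0124). Dnajb9 and Dnajc3 in lean mice and Xbp1 in obese mice still did not. Dnajb11 (2.06-fold and 2.37-fold), Sec23b (1.82-fold and 2.16-fold), Calr (1.74-fold and 1.92-fold), and Pdia3 (1.54-fold and 1.78-fold) passed in both.

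The difference itself was tested for each gene, and none of the 35 passed, where 0.131% of all genes did, with 8 at an unadjusted limma p under 0.05, where 15% of all genes were. Between obese and lean mice, none passed when unfed, where 0.77% of all genes did, and none when fed, where 0% did, with 6 and 13 at an unadjusted p under 0.05, against 22.9% and 20%. These comparisons share their groups with both meals. Fed values exceeded all unfed values for 29 genes in lean and 25 in obese mice, against 29% and 16.8% of all genes, with medians of 0.57 and 0.78 (log2) against 0.08 and 0.02. In the meal of obese mice the count was 25 at an adjusted p under 0.05, 0 when its 6 libraries were fitted alone, and 0 without fed obese mouse 2 or 3 or unfed obese mouse 2. In lean mice the 14 calls became 9, 8, and 9 without fed mouse 1, 2, or 3, and 7 and 8 without unfed mouse 1 or 2. No marker of another cell type was called in the NRF comparisons, in the meal of obese mice, between fed obese and fed lean mice, or in the difference of the meals, and 1 endothelial marker was lower in the meal of lean mice and in unfed obese against unfed lean mice. In both experiments 2 of 11 acinar markers and 0 of 6 plasma and B cell markers passed the filter, and the rest could not be called.

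Herpud1 moved the other way from the chaperones in lean mice. It was at 354.2, 411.5, and 365.5 RPKM in unfed lean and at 214.0, 300.3, and 173.5 RPKM in fed lean mice (1.68-fold lower, adjusted p = 0.0087). In obese mice it was at 222.1, 223.9, and 192.7 RPKM unfed and at 369.9, 424.3, and 401.7 RPKM fed (log2 difference 0.90 ± 0.17 SE, adjusted p = 0.0118, above the threshold of 0.01). Within each diet the groups did not overlap, and the order of fed and unfed mice was opposite. The difference of the 2 responses was 1.65 (log2, 95% interval 1.14 to 2.17) and just missed the threshold of 0.01 (adjusted p = 0.0113). It passed with a filter of 2 RPKM (adjusted p = 0.00965), with median-ratio scaling (adjusted p = 0.00924), and without fed lean mouse 2 (adjusted p = 0.00565). In the injected mice the vehicle meal gave -0.18 (log2, adjusted p = 0.698), with fed PBS mouse 4 at 503.8 RPKM above all others, and in uninjected mice fed and unfed livers overlapped. Herpud1 had 10 GR and 7 FOXO1 peaks within 50 kb of its start.

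**Figure D4:**
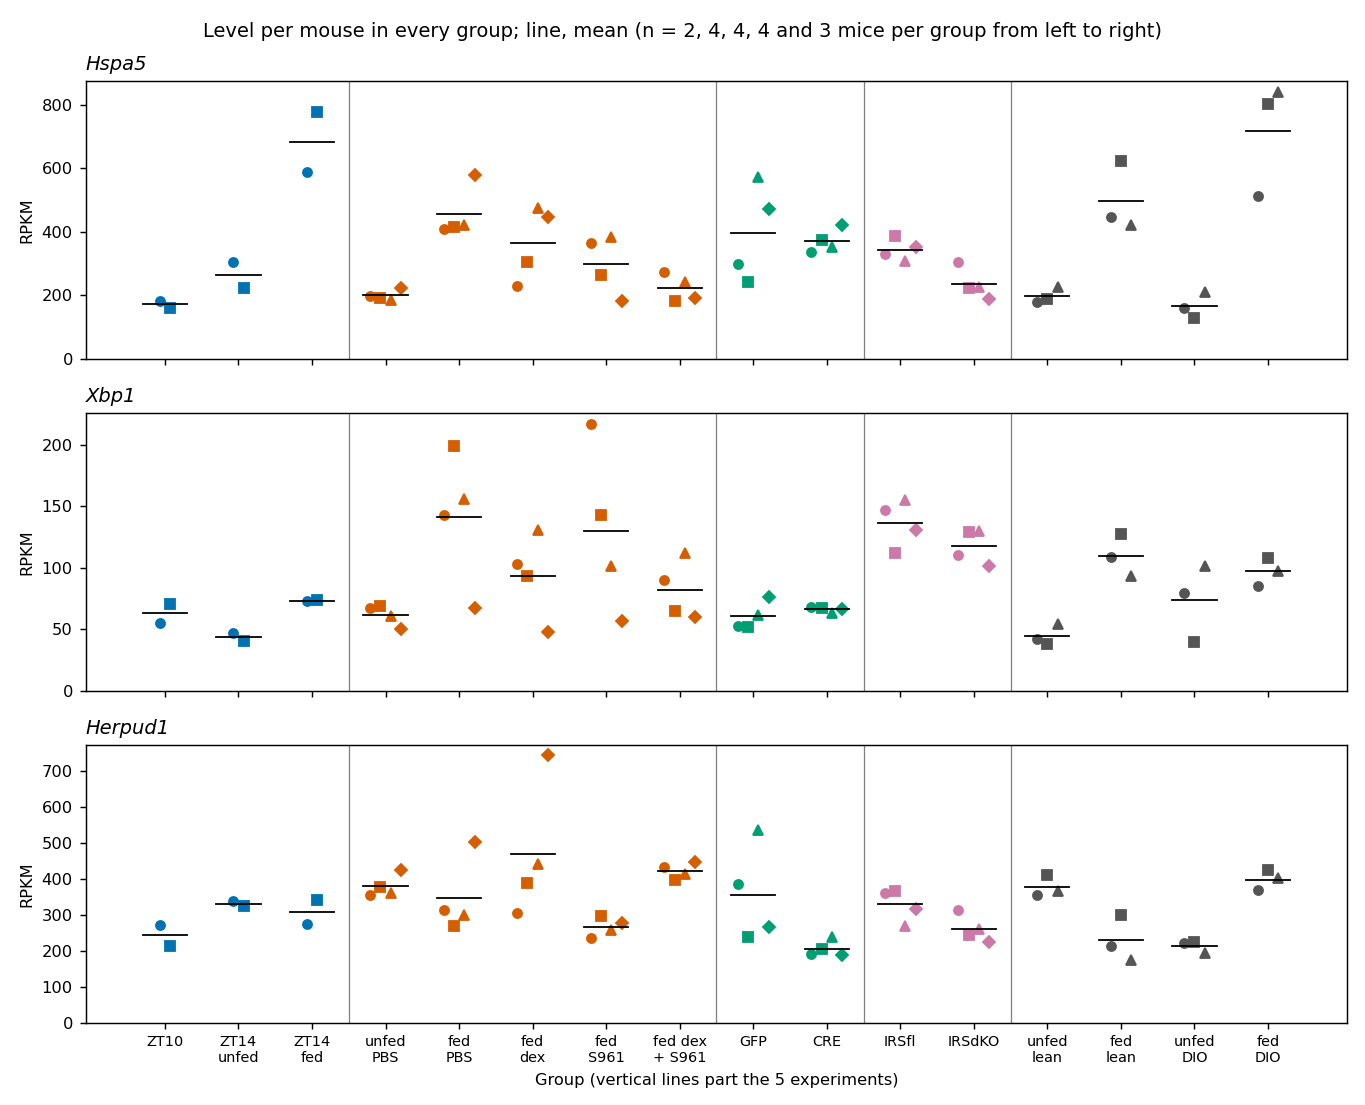
RPKM of Hspa5, Xbp1, and Herpud1 in each of the 54 livers, in the 16 groups, with group means as lines and a symbol shape for each mouse number. Fed lean and fed obese mice lie above the unfed mice for Hspa5, whereas for Herpud1 fed lean mice lie below and fed obese mice above the unfed mice of their diet.

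Across the 14 comparisons, many of which share groups, 10 genes were called 5 times, namely Calr, Creld2, Dnajb11, Hspa5, Hyou1, Manf, Pdia3, Pdia4, Sdf2l1, and Sec23b. Each was higher in the meals of vehicle-injected, lean, and obese mice. All but Sec23b were lower with dex and S961 and in L-IRSdKO, and Sec23b was lower with S961 and with dex and S961. Hsp90b1, Sel1l, and Syvn1 were called 4 times. At the other end, Atf6, Derl1, Ern1, Erp44, Sec24d, Sec61a1, Sec61b, and Ssr3 were never called.

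**Figure D5:**
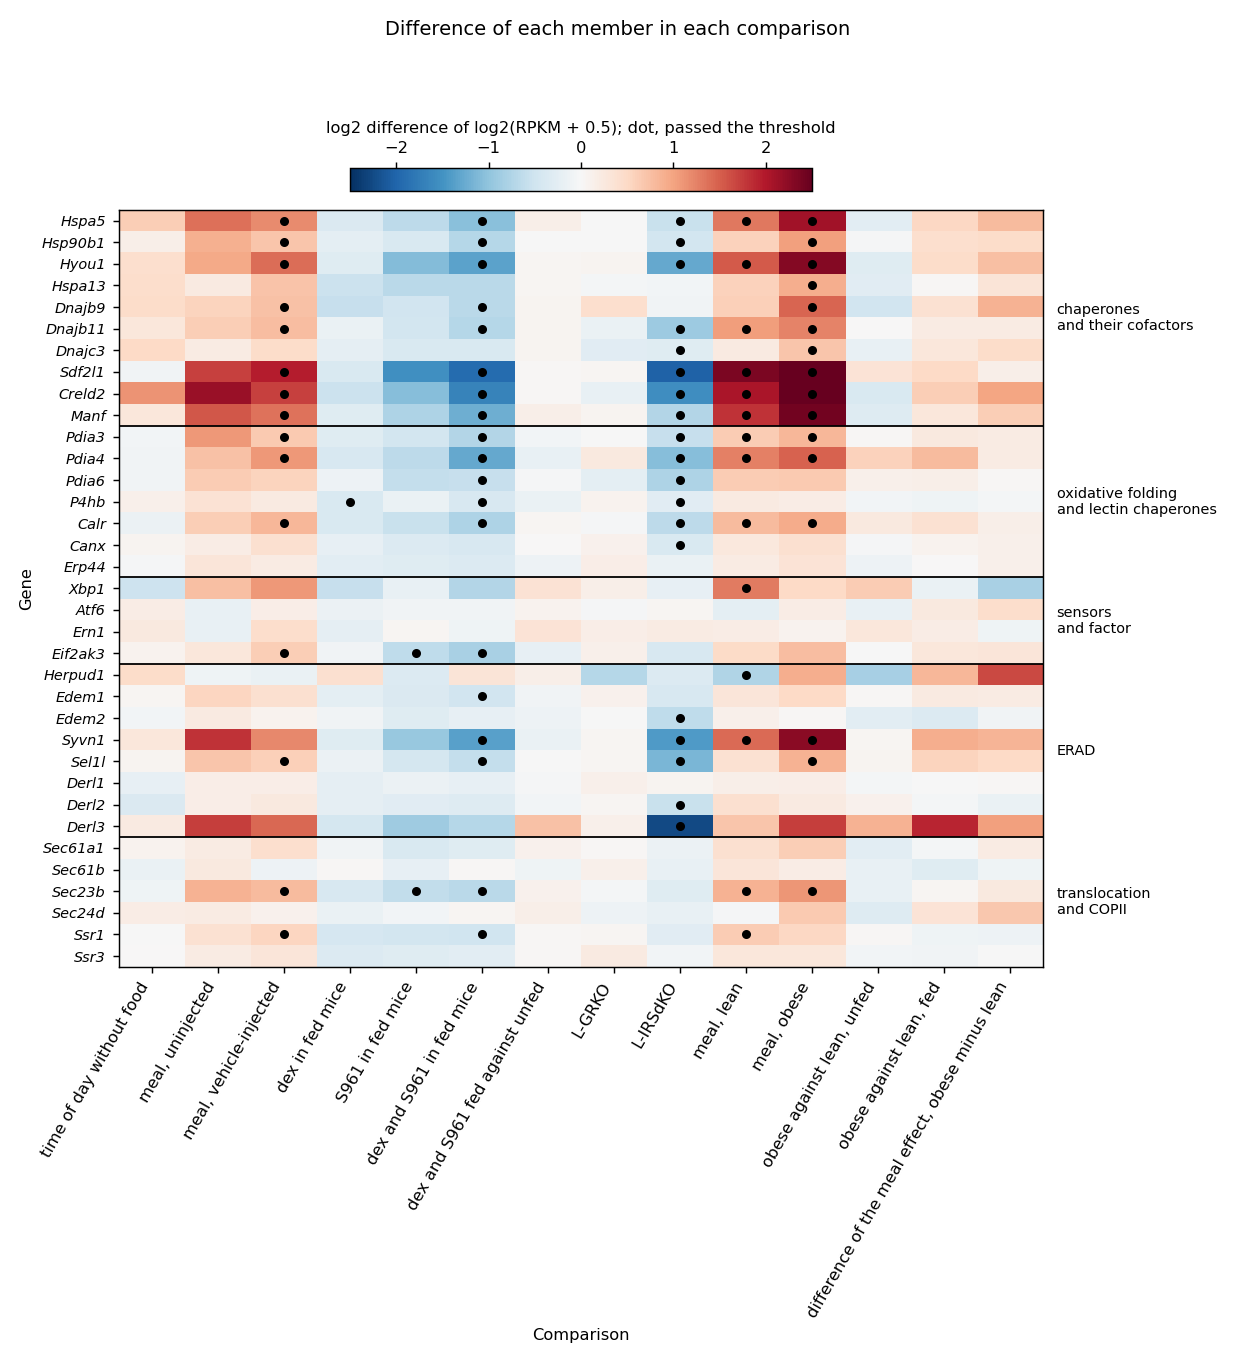
Log2 difference of each of the 35 genes (rows, by role) in each of the 14 comparisons (columns), on a colour scale that ends at 2.5 in both directions, with dots for genes that passed the threshold of their experiment. The 3 meals with calls show dots among the chaperones in the rising colour, and the columns of dex with S961 and of L-IRSdKO show them in the falling colour.

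The sensors and their factor had smaller median differences than the chaperones in the meals, a contrast that was not tested. The median of these 4 genes was 0.53 (log2) in the vehicle meal, where that of the 10 chaperones was 0.97, and 0.34 in the meal of obese mice, where it was 1.78. Atf6 lay between 10.8 and 29.9 RPKM in all libraries, with log2 differences of -0.24 to 0.43, and Ern1 between 4.50 and 30.2 RPKM, with differences of -0.23 to 0.44. Xbp1 passed in the meal of lean mice, with 108.3, 127.5, and 93.4 RPKM fed against 41.8, 37.9, and 54.2 RPKM unfed (2.45-fold, adjusted p = 0.00812). In obese mice it was at 79.4, 39.8, and 101.7 RPKM unfed and 85.5, 108.0, and 97.2 RPKM fed, with overlap (log2 difference 0.49, adjusted p = 0.310), and the difference between diets was -0.80 (log2, 95% interval -1.68 to 0.07). RPKM over a transcript does not separate spliced from unspliced Xbp1 mRNA, nor does it show whether a sensor is active.

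The genes with an ERSE were set beside the other members with a promoter sequence. In the vehicle meal, 4 of the 9 with an ERSE and 9 of the other 20 were called, and with dex and S961 6 of 9 and 11 of 20. In L-IRSdKO all 9, namely Calr, Canx, Creld2, Derl3, Dnajc3, Hsp90b1, Hspa5, Pdia6, and Syvn1, were called lower, and 8 of the other 20. In the meal of lean mice 4 of 9 and 7 of 20 were called higher, and 1 more of the 20, Herpud1, was called lower. In that of obese mice 6 of 9 and 7 of 20 were called, all higher. These counts are a description, since the genes are few and no test was made, and genes without the letters of an ERSE in this window, such as Pdia4 and Sdf2l1, were also called in each of these comparisons.

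Positions of peaks from unfed livers at ZT14 were joined to the starts of these genes on the mm9 build. The GR and FOXO1 peaks were made from pools of livers and kept where replicates matched, the DNase I hypersensitive sites (DHSs) come from fed and unfed livers together, and the lists give positions without heights. Distances are from the centre of a peak. A DHS lay within 0.5 kb of the start of all 35 genes, against 75.4% of 12465 genes that were tested in any experiment and have a position. A GR peak lay within 50 kb of 18 of the 35 starts (51.4%, against 45.9% of all genes), and a FOXO1 peak within 50 kb of 21 (60.0%, against 48.9%). Within 0.5 kb, a FOXO1 peak was found for 9 (25.7%, against 9.14%) and a GR peak for 2 (5.71%, against 3.10%). At Hspa5, on chr2:34627490-34632051 (plus strand), the nearest FOXO1 peak lay 101 bp and the nearest GR peak 796 bp from the start. At Xbp1 (chr11:5420662-5425896, plus strand) the nearest peaks lay 14593 bp (GR) and 14672 bp (FOXO1) away, at Herpud1 (chr8:96910338-96919277, plus strand) 1187 and 1185 bp, and at Sdf2l1 (chr16:17130231-17132476, minus strand) neither was found within 50 kb.

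Of 58 further genes of these pathways, 57 passed the filter in 4 experiments and 56 in L-GRKO. Shares of all genes called in the same direction stand beside their counts. In the vehicle meal 2 rose (2.55% of all genes), Srprb (a subunit of the receptor for the signal recognition particle) by 0.66 (log2) and Uggt1 (the glucosyltransferase that senses glycoprotein folding) by 0.50, and with S961 Srprb was the only further gene called, at -0.63 (0.96%). With dex and S961 5 fell (7.9%), among them Srprb (-0.71), Fkbp14, a prolyl isomerase (-0.54), and Ddit3 (CHOP, a factor induced by PERK signalling, log2 difference -1.03, adjusted p = 0.0415), and 2 rose (2.7%), Chac1 (log2 difference 1.49) and Trib3 (1.36), both known targets of ATF4. In L-IRSdKO 15 fell (8.31%) and 1 rose (9.06%). The riser was again Trib3, with means of 12.5 RPKM in L-IRSdKO and 3.10 RPKM in the controls (log2 difference 1.94, adjusted p = 0.00677), and the 15 included Ddit3 (-1.16), Sec61g (-1.06), and the oxidase Ero1b (adjusted p = 0.0152). In the meal of lean mice 7 rose (7%) and 1 fell (3.23%), and in that of obese mice 4 rose (0.962%) and 1 fell (0.262%), with Srprb among the risers of both (0.72 and 0.97), Mogs and Ostc in lean mice (0.78 and 0.77), Ssr2 in obese mice (0.59), and Chac1 as the 1 that fell in both (log2 difference -1.52 and -1.68). Ddit3 rose in the meal of obese mice (log2 difference 1.41, adjusted p = 0.00504) and in that of uninjected mice, from a mean of 4.70 to 14.3 RPKM (log2 difference 1.51, adjusted p = 0.00310), as the only further gene called there (0.568% of all genes rose). Chac1 fell in L-GRKO (log2 difference -1.30, adjusted p = 0.0468, 2.22%), Sec24a fell with dex (2.19%), and in the other comparisons none of the further genes passed.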

How the data were processed

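Liver RNA of 54 single mice was analysed. The authors enriched poly(A) RNA or depleted ribosomal RNA, aligned reads to mm9 with STAR, and deposited RPKM values on RefSeq transcripts, having called regulated genes with DESeq2 on counts that were not used here. RPKM does not correct for a few very abundant genes. HOMER was the authors' peak caller, at a false discovery rate of 0.001, and they deposited positions only. The tool that counted RNA reads, the strand counted, and the handling of duplicates are not given in the sources used here.

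Of 35707 RefSeq IDs, 35407 had a symbol and 0 value columns were left unused. The 5 experiments were fitted apart in R 4.3.3 with limma 3.58.1 (empirical Bayes with a variance trend) on log2(RPKM + 0.5), keeping genes whose mean reached 0.5 RPKM, with Benjamini-Hochberg adjustment over all genes tested and thresholds of 0.01 (NRF, obesity) or 0.05 (others), as in the study. Files were joined in Python 3.11.15 (numpy 2.4.6, pandas 2.3.3, scipy 1.17.1, matplotlib 3.10.9). The fit was checked on simulated data. Where depth was lowest, the values of low genes rest on few reads.

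The 35 genes, the further pathway genes, the cell markers, and the search elements were chosen with earlier results of these data known. Members with the largest changes, Hspa5, and Xbp1 are given by sample, and further pathway genes are counted, with up to 3 called genes of largest change named per direction and comparison. Each library was left out in turn, and the other alternatives were an adjusted p of 0.05, other pseudocounts (0.1 and 1), the filter removed or set at 2 RPKM, median-ratio scaling, quantile normalization, a fit of the compared groups only, a replicate block, a term for the library series that number 4 marks in injected mice, and peak distances of 20 or 100 kb. The dose of S961 and the time of virus injection read differently in the labels and the study's methods and are not printed.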

Additional observations from a re-analysis of the deposited data

Results flagged for a closer look

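For the 13 genes given by sample, 117 sets of 4 livers were examined, each of 1 gene and 1 group, and 12 (10.3%) had 1 liver far from the other 3 by Dixon's test at 95%, and in each the odd liver was the highest. For independent sets of normal values chance flags about 1 in 20. These sets share livers and hold RPKM without logs, so that rate is only a rough guide. In fed PBS mice it was mouse 4 for Hspa5 (578.4 RPKM), Creld2 (118.8 RPKM), Pdia4 (108.3 RPKM), and Syvn1 (122.6 RPKM), and in unfed PBS mice it was again mouse 4 for Hyou1 (31.06 RPKM), Sdf2l1 (9.872 RPKM), Manf (31.29 RPKM), and Syvn1 (36.24 RPKM). Mouse 4 is the liver of the other library series in each group. In fed mice given dex and S961, the odd liver was mouse 4 for Derl3 (2.239 RPKM) and mouse 1 for Sec23b (22.22 RPKM). After S961 it was mouse 1 for Sdf2l1 (8.898 RPKM). In L-IRSdKO it was mouse 1, the liver with the highest acinar sum of that experiment, for Sec23b (33.58 RPKM). The part of the library series and of acinar RNA in these levels was not tested.

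Herpud1 was singled out because its fed livers lay below all unfed livers in lean mice and above all unfed livers in obese mice. The difference of the meal effect between obese and lean mice was 1.65 (log2), with an adjusted limma p of 0.0113 that missed the threshold of 0.01.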

How the results depend on the processing

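Medians of the 35 genes near 0 changed sign with single libraries left out, with ranges of -0.07 to 0.21 (log2) for time of day, -0.06 to 0.13 in L-GRKO, and -0.0027 to 0.0997 for dex and S961 against unfed mice. Fitting the compared groups alone moved the calls with dex from 1 to 0, with S961 from 2 to 0, and in the meal of obese mice from 16 to 0. Median-ratio scaling gave 8 with dex and S961, 8 in the vehicle meal, 0 with dex, 0 with S961, and 1 for the difference between diets, where a filter of 2 RPKM also gave 1. Quantile normalization gave 0 with dex, 1 with S961, and 1 in L-GRKO. With no filter the vehicle meal had 9 calls and S961 0. In the uninjected meal, a filter of 2 RPKM gave 4 and a pseudocount of 0.1 gave 3. At an adjusted p under 0.05, calls numbered 14 in the uninjected meal, 25 in the meal of obese mice, and 1 each for time of day, the difference between diets, and obese against lean mice, fed and unfed. The meal of lean mice also gained calls at that threshold, namely Canx, Derl2, Eif2ak3, Hsp90b1, Hspa13, Pdia6, and Sel1l, all higher. A term for the library series gave 23 in the vehicle meal, 5 with dex, and 10 with S961, and mice 1 to 3 alone, chosen after seeing the data, gave 4 with dex and 0 with S961. The share of all genes called under each setting is not given here, and the causes were not tested.

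In the injected mice number 4 marks a library series and numbers 1 to 3 mark nothing known, and in the other experiments the labels give the numbers no meaning. No compared groups correlated above 0.1 in every pair (injected mice -0.12 to 0.605), whereas dex and S961 together did with dex alone and with S961 alone, which were not compared. With the replicate block the calls were 23 in the vehicle meal, 2 with dex, 7 with S961, 1 in L-GRKO, 24 with dex and S961, 13 in L-IRSdKO, and 12 and 11 in the meals of lean and obese mice.

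With each library left out in turn, calls ranged from 0 to 9 in the uninjected meal (9 without ZT14-unfed mouse 1), 2 to 13 in the vehicle meal, 0 to 2 with dex (2 without dex mouse 3 or 4), 0 to 5 with S961, 10 to 21 with dex and S961, 0 to 1 in L-GRKO, 9 to 22 in L-IRSdKO, 7 to 10 in lean and 0 to 15 in obese mice, and 0 to 1 for the difference between diets. In the other 4 comparisons they stayed at 0. GR peaks within 20 and 100 kb were found at 14 and 25 of the 35 genes, and FOXO1 peaks at 17 and 30.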
